A study of Mus musculus with 2 samples.

Results

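The genes described here encode the subunits of the mitochondrial respiratory chain and ATP synthase that come from the nuclear genome. They were taken from the gene table by symbol: names that start with Nduf (not Ndufaf), Uqcr, Cox4 to Cox8 or Atp5, together with Sdha, Sdhb, Sdhc, Sdhd, Cyc1 and Cycs, with an annotated transcript and no pseudogene mark. This gave 87 of 43346 features. Of these, 36 belong to complex I, 4 to complex II, 9 to complex III, 20 to complex IV and 17 to complex V, and 1 is cytochrome c. Ndufa4 and its relative Ndufa4l2 were counted with complex IV, of which Ndufa4 is known to be a subunit. Atp5s and Atp5sl were kept by their names, although they are not structural parts of the ATP synthase.

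RNA-seq of total RNA depleted of ribosomal RNA was made from X63/0 (X63-Ag8.653), a mouse plasmacytoma line, that is, a line grown from a tumour of antibody-producing plasma cells. Cells were left untreated or exposed for 3 h to 30 mM cycloleucine, an amino acid analogue that inhibits the enzyme making S-adenosylmethionine, the methyl donor of the cell. The design text speaks of 3 repeats, but 1 library per group was analysed here, and the sources used here do not say whether a library stands for 1 culture or several pooled. No value below has a replicate error and no p-value is given. The line is a single established culture, and the sources used here do not say whether untreated cells were given plain medium.

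Complexes I to IV pass electrons from NADH and succinate to oxygen, and complexes I, III and IV pump protons across the inner mitochondrial membrane as they do so. Complex V, the ATP synthase, lets the protons flow back and makes ATP. Apart from complex II, each is assembled from subunits of both the nuclear and the mitochondrial genome, and plasma cells draw on this ATP for the making of secreted protein.

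Gene reads numbered 27127865 for untreated cells and 31951946 for treated cells. Mat2a, the gene of the inhibited enzyme, had an RPKM of 71.2 and 182, a log2 fold change of 1.35. RPKM counts exon reads per kilobase of exon, scaled to the gene reads of the library. Of 8 plasma cell markers in the table, 8 were measured, with RPKM between 1.35 and 166. Markers of other cell types had summed RPKM of 0.42 and 0.53 (7 T and natural killer cell genes), 1.48 and 1.43 (6 myeloid genes) and 0.28 and 0.27 (5 fibroblast genes) in the untreated and cycloleucine libraries. In bulk RNA, fewer cells that use a gene and less of its RNA in each cell cannot be told apart.

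Subunit RNA was abundant and differed little between the libraries. Of the 87 genes, 81 had 50 or more exon reads in total and an RPKM of 1 or more on one side of the comparison, and these are called measured. Their median RPKM was 52.2 untreated and 57.0 treated, against 5.98 and 6.01 over all 9081 annotated features that passed the same filter. The summed RPKM of the 81 was 5283 and 5644. None was at least 1.5-fold higher or lower, where 2.16% of the 9081 features were higher and 1.87% lower by that size. At least 1.2-fold higher were 7 of 81 (11.6% of all features), namely Ndufb11, Ndufab1, Ndufb8, Atp5l, Atp5e, Cox6a2 and Cox7a1. At least 1.2-fold lower was 1 of 81, Atp5k (10.1% of all features). Thus 73 of 81, or 90.1%, lay within 1.2-fold, beside 78.2% of all features. That share is not matched for level, and most of those features were less abundant than the subunit genes. Other features also differed less at higher levels. Their quartiles were -0.13 and 0.15 below a mean RPKM of 20, and -0.06 and 0.09 between 50 and 100. The share within 1.2-fold was not computed for features of the same level.

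Within that narrow range most of the genes lay on the higher side. The log2 fold change of cycloleucine over untreated was above 0 in 65 of 81, while 50.6% of all features were above 0. The median was 0.09, a 1.07-fold difference, with quartiles at 0.02 and 0.16. The median of all features was 0.0022, with quartiles at -0.12 and 0.13. Complex IV had the highest median, 0.16 (13 of 15 above 0), followed by complex V at 0.09 (15 of 16), complex I at 0.08 (26 of 36), complex III at 0.07 (7 of 9) and complex II at 0.05 (3 of 4). The order changed with the kind of read: with unique reads complex IV stayed highest at 0.19 and complex I came next at 0.13, and with junction reads complex V had the highest median, 0.13, and complexes I to IV lay between 0.05 and 0.07. The counting interval of a typical member, from the medians of the interval bounds, ran from 0.02 to 0.19. These intervals are exact 95% intervals that cover counting error only.

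The shift was set beside that of other genes of the same abundance and length, because in these libraries the most abundant features also lay above 0. Among features with a mean RPKM of at least 100, the 15 subunit genes had a median of 0.08 and the 269 other features one of 0.05, with 67.7% of the others above 0. Between 50 and 100 RPKM the medians were 0.11 for 27 subunit genes and 0.0092 for 290 others. Between 20 and 50 RPKM they were 0.08 for 25 and -0.02 for 966, and below 20 RPKM 0.14 for 14 and 0.0017 for 7475. For exon lengths under 1000 bases the medians were 0.14 for 27 subunit genes and 0.06 for 456 others. The subunit genes thus had the higher median in each band of level and in this band of length, and the gap was smallest among the most abundant genes.

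The kind of read used also moved the shift. Many of these short genes have processed copies elsewhere in the genome, and 14 of the 81 had under 50% of their exon reads uniquely placed, 17 had 50 to 90% and 50 had at least 90%. The 50 genes with at least 90% had a median of 0.06, with 35 above 0, while 6807 features of the same kind had a median of 0.00011. With uniquely placed reads alone, the median of the 81 was 0.12 with 67 above 0, and that of all features 0.03 with 57.1% above 0. With uniquely placed reads that span 2 joined exons, and so derive from spliced RNA, 73 genes had enough reads, their median was 0.08 and 47 lay above 0. The 7373 features measured that way had a median of 0.02 and 54.0% above 0. At least 1.2-fold higher were 11 of 81 subunit genes with unique reads (14.5% of all features), 12 of 73 with junction reads (19.9%) and 2 of the 50 genes with at least 90% unique reads (10.9% of features of that kind, of which 50.0% were above 0). At least 1.2-fold lower were 1 of 81 with unique reads (8.67%), 2 of 73 with junction reads (15.8%) and 0 of 50 (9.3%). The excess of higher genes was therefore smaller in junction reads (47 of 73) than in exon reads (65 of 81).

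**Figure D1:**
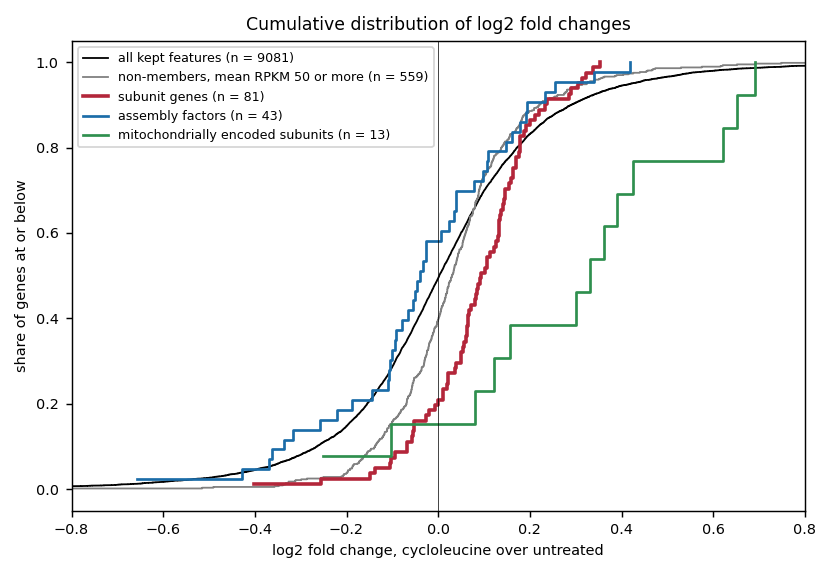
Cumulative share of genes (y axis) at or below each log2 fold change of cycloleucine over untreated (x axis) for the 81 measured subunit genes, the 43 measured assembly factors, the 13 mitochondrially encoded subunits, the 9081 kept features and the kept non-member features with a mean RPKM of at least 50. The curve of the subunit genes is steep and lies to the right of the curve of all features around 0, with its median at 0.09.

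Complex I, NADH dehydrogenase, has 7 core subunits from the nuclear genome that carry the flavin and the iron-sulfur clusters or bind ubiquinone. All 7 of these were above 0, between 0.07 and 0.19. Ndufv1, which binds NADH and the flavin, had 39.9 RPKM before and 44.1 after treatment, at 0.15 on the log2 scale (0.07 to 0.22). Ndufs1, the largest iron-sulfur subunit, had 24.1 and 25.4 (0.08), and Ndufv2, its partner in the arm that takes up electrons, had 19.8 and 20.7 (0.07). Other core subunits were alike: Ndufs7 had 23.4 and 24.9 (0.09), Ndufs8 had 52.5 and 59.4 (0.18) and Ndufs3 had 42.2 and 48.0 (0.19). Counting intervals of Ndufs7 and Ndufv2 reached below 0, to -0.02 and -0.05.

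The 29 accessory subunits of complex I, which surround the core and are needed for its assembly and stability, were more spread, from -0.26 to 0.35, with 19 above 0 and a median of 0.06. Ndufb11, of the membrane arm, was the highest of all measured subunit genes, with an RPKM of 44.6 and 57.0 from 1099 and 1655 exon reads, at 0.35 (0.24 to 0.47). Its span (chrX:20615326-20617619, mm10) overlaps Rbm10, and its uniquely placed reads gave 0.32 (0.19 to 0.44). Ndufb8, a neighbour of it in the membrane arm, had 37.0 and 46.3 from 3161 and 4659 reads, at 0.32 (0.26 to 0.39), and 0.32 from junction reads (0.22 to 0.42). Ndufb8 was thus at least 1.2-fold higher in each of the 3 kinds of read, whereas the junction value of Ndufb11, 0.25, reached down to -0.01.

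Ndufab1, the mitochondrial acyl carrier protein that is also a complex I subunit, had 2.98 and 3.80 (0.34, 0.19 to 0.51) from all exon reads. From junction reads, 107 and 119 of them, it was at -0.05 (-0.44 to 0.34). On the lower side stood Ndufa1, a small subunit encoded on the X chromosome, with 37.8 and 31.7 from 430 and 424 reads, at -0.26 (-0.45 to -0.06). Its uniquely placed reads, 96.1% of the total, gave -0.21 (-0.41 to -0.0047), but its junction reads gave 0.11 (-0.25 to 0.47). Ndufc1 was at -0.15 (-0.37 to 0.07) and Ndufb7 at -0.14 (-0.27 to -0.0082). Ndufb9 had the highest RPKM in the complex, 135 and 137, and was at 0.02.

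**Figure D2:**
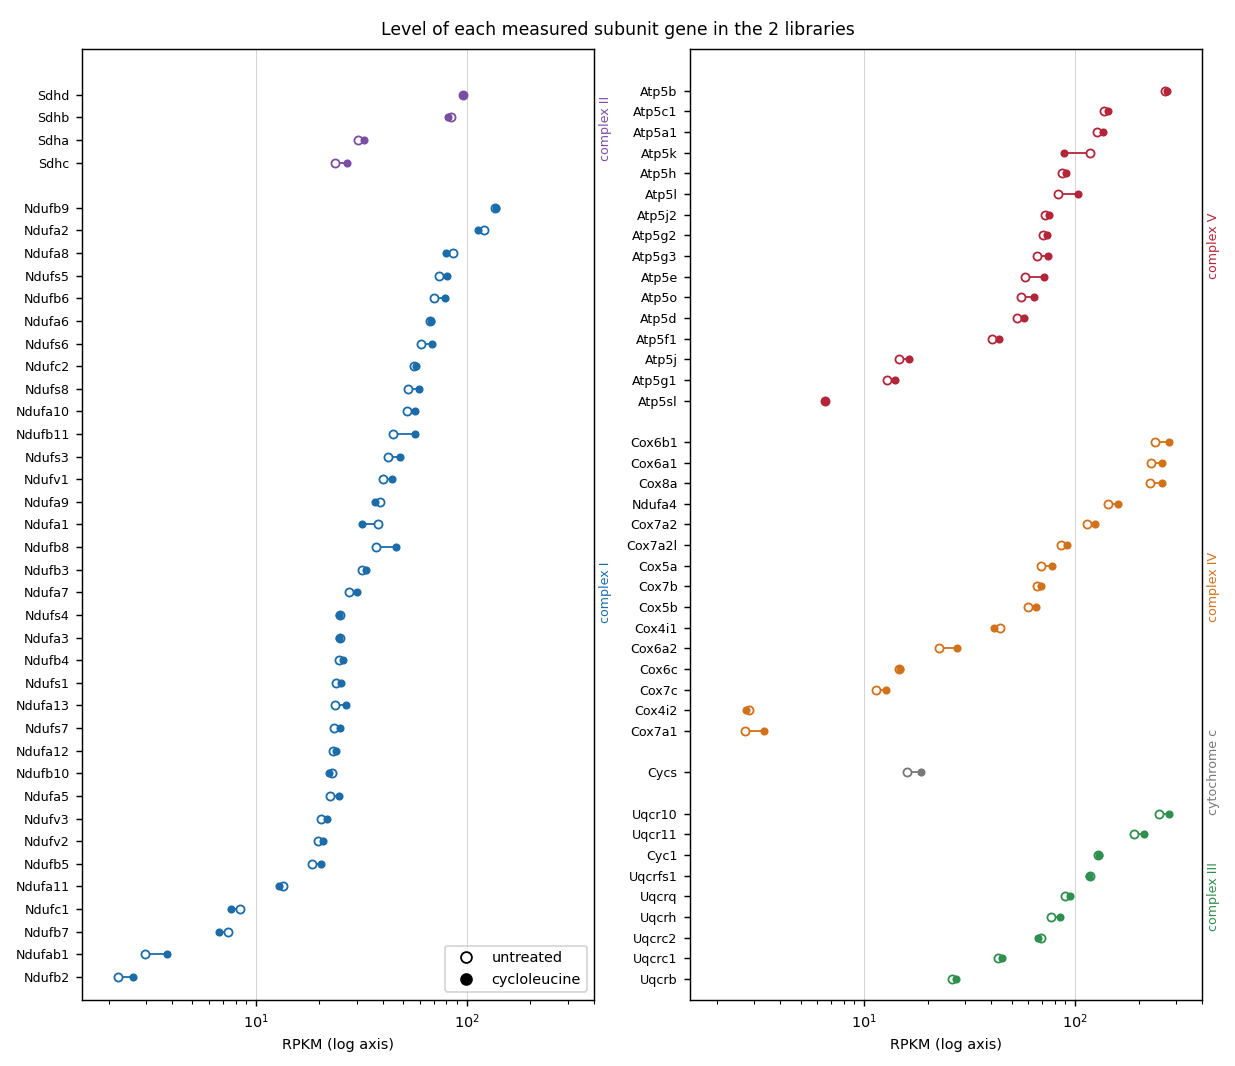
RPKM (x axis, log scale) of measured subunit genes in the untreated (open) and cycloleucine (filled) library, 1 gene per row, sorted by untreated level within each complex. Most pairs of points nearly touch, and levels within a complex spread far more than the libraries differ.

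RPKM values ranged widely within each complex, from 2.21 (Ndufb2) to 135 (Ndufb9) in untreated complex I. Part of this range follows the exon length used for the RPKM. Of the 86 genes with a principal transcript in GENCODE M21 (GRCm38), 18 had a deposited exon length over 2 times that transcript. Where a gene had several, the longest was used, so other genes may be affected as well. For Ndufb2 it had 4371 bases and for Ndufab1 3479, beside deposited lengths of 5628 and 6883, and neither is among the 18. Ndufb7 was given 4522 bases of exon where the principal transcript has 623, and Ndufa11 2661 where it has 545. Ndufb8 was given 3146 where it has 680. Counted per kilobase of their principal transcripts, untreated Ndufb8 was at 171 and Ndufb9 at 125, so Ndufb8 ranked above Ndufb9. Per kilobase of the principal transcript, the untreated level was 53.5 instead of 7.38 for Ndufb7, 65.7 instead of 13.5 for Ndufa11, 70.9 instead of 14.7 for Cox6c and 242 instead of 57.9 for Atp5e. The ratio of the RPKM values of a gene between the libraries does not involve its length, which enters the log2 fold change only through the 0.1 added to each value.

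Complex II, succinate dehydrogenase, is made of nuclear subunits alone and links the citric acid cycle to the chain. Sdha, the flavoprotein that oxidises succinate, had an RPKM of 30.3 and 32.4, at 0.09 (0.03 to 0.16). Sdhb, the iron-sulfur subunit, had 84.4 and 81.2, at -0.06 (-0.11 to -0.0015). Both membrane anchors were above 0: Sdhc had 23.7 and 27.0, at 0.19 (0.11 to 0.27), and Sdhd had 95.4 and 96.2, at 0.01 (-0.06 to 0.08). Sdhb and Sdhc also stood apart in junction reads, at -0.17 (-0.26 to -0.07) and 0.40 (0.23 to 0.57). From unique exon reads Sdhb was at -0.02 (-0.07 to 0.04) and Sdhc at 0.23 (0.15 to 0.32). These intervals cover counting error only, so whether the 4 genes differ beyond the variation between cultures is not known.

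Complex III passes electrons from ubiquinol to cytochrome c. Its catalytic subunits of nuclear origin lay closest to 0. Cyc1, cytochrome c1, had 128 and 130, at 0.02 (-0.04 to 0.08), and the Rieske iron-sulfur protein Uqcrfs1 had 118 and 116, at -0.03 (-0.09 to 0.03). The core proteins Uqcrc1 and Uqcrc2, which have no redox centre, were at 0.05 (43.2 and 44.9) and -0.05 (68.8 and 66.4). The small subunits were higher. Uqcr11 had 190 and 213, at 0.16 (0.10 to 0.23), Uqcr10 had 251 and 277, at 0.14 (0.08 to 0.20), and Uqcrh had 77.0 and 84.7, at 0.14 (0.06 to 0.21). Uqcrq was at 0.08 and Uqcrb at 0.07. All 9 genes lay within 1.2-fold. Cycs, the mobile carrier cytochrome c, had 16.0 and 18.7, at 0.22 (0.12 to 0.32), but only 9.38% of its exon reads were uniquely placed. The unique reads of Cycs, 132 and 197, gave 0.36 (0.05 to 0.70).

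Complex IV, cytochrome c oxidase, reduces oxygen. Its nuclear subunits regulate and stabilise a catalytic core of mitochondrial origin, and several exist as paralogs used in different tissues. The forms found in most tissues carried nearly all the RNA. Cox6b1 had an RPKM of 238 and 280, at 0.23 (0.17 to 0.30), Cox6a1 had 228 and 258, at 0.18 (0.12 to 0.24), and Cox8a had 226 and 259, at 0.20 (0.14 to 0.27). Cox7a2 was at 0.13 with 113 and 124, Cox7b at 0.07 with 65.6 and 68.8, and Ndufa4 at 0.16 with 144 and 160. Cox5a and Cox5b, further subunits found in most tissues, had 69.0 and 78.1 (0.18, 0.07 to 0.28) and 60.0 and 65.5 (0.13, 0.05 to 0.20). Cox7a2l, a relative of Cox7a2 that takes part in respiratory supercomplexes, was at 0.10 with 85.4 and 91.7, and Cox6c was at 0.01.

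Cox4i1, the main form of subunit 4, was the lowest measured gene of the complex, with 44.0 and 41.2 and a log2 fold change of -0.09 (-0.19 to -0.0035). Its level cannot be set beside the others. All 1723 and 1908 of its uniquely placed exon reads crossed a junction, where the median over the measured subunit genes was 30.6%. Cox4i1 (chr8:120668222-120674207) lies inside a gene model, Gm20388 (chr8:119910841-124345722), to which the table gave 302220 and 360657 intron reads and 0 uniquely placed exon reads. Ndufa13, a complex I subunit that overlaps Yjefn3 and Tssk6, and Cox6a2, which lies inside Itgad, were the other 2 members with no unique exon read outside a junction. Of all kept features 2.51% were in this state.

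Of the paralogs known from muscle, lung or testis, Cox6a2 had a moderate RPKM and the others were low or undetected. As with Cox4i1, all unique exon reads of Cox6a2 crossed a junction, so its level cannot be set beside the others. Cox6a2, the heart and muscle form, had 403 and 581 exon reads (RPKM 22.6 and 27.6) and was at 0.29 (0.11 to 0.48), with 30.4% of its reads uniquely placed. Cox7a1, the muscle form, had 27 and 39 reads (0.28, -0.45 to 1.06), and Cox4i2, the lung form, 61 and 69 (-0.06, -0.58 to 0.46). Cox6b2, Cox7b2 and Cox8b had 0 exon reads in both libraries, and Cox8c had 0 and 1. A count of 0 allows up to 3 reads, which for 1 kb of exon is an RPKM of 0.11 untreated and 0.094 treated.

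The gene that differed most between the libraries was below the filter. Ndufa4l2, a paralog of Ndufa4 known as a target of the hypoxia-inducible factor HIF1, had 30 exon reads without and 5 with cycloleucine, or 1.15 and 0.16 RPKM. This is 7.07-fold lower as a plain ratio (2.71 to 23.3), or -2.25 in log2 with 0.1 added to each value. Of these reads 29 and 5 were uniquely placed, while intron reads were 12 and 12 and junction reads 0 and 1. Ndufa4l2 (chr10:127514939-127517152) overlaps Shmt2 in the table, and with so few reads the only error known for this difference is that of counting. Whether reads of Shmt2 contribute was not tested.

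**Figure D3:**
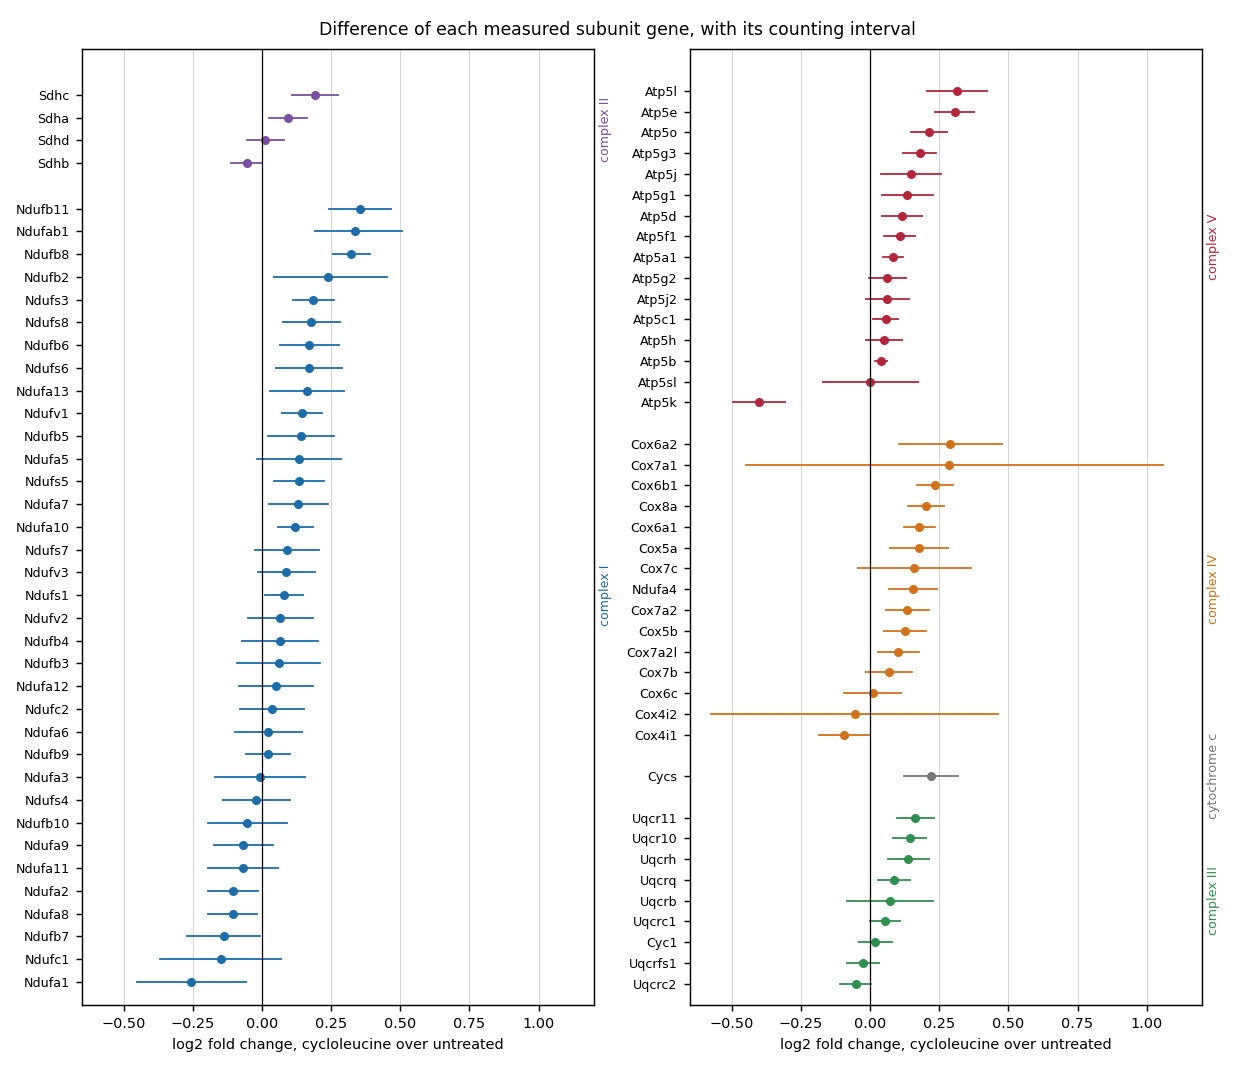
Log2 fold change of cycloleucine over untreated (x axis, points) with exact 95% counting intervals (bars) for measured subunit genes, grouped by complex. Most points lie between 0 and 0.2, Atp5k stands apart at -0.40, and Cox7a1 and Cox4i2 have the widest intervals.

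Complex V has a catalytic F1 head and a membrane part, Fo, which holds a ring that turns with the proton flow. The 5 subunits of the head were all above 0. Atp5b, the catalytic beta subunit and the most abundant subunit gene, had an RPKM of 266 and 273 from 30520 and 36954 exon reads, at 0.04 (0.02 to 0.06). Atp5a1, the alpha subunit, had 127 and 135 (0.08, 0.05 to 0.12), and the gamma subunit of the central stalk, Atp5c1, had 138 and 143 (0.06, 0.01 to 0.10). Atp5d, the delta subunit, had 52.8 and 57.2 (0.11). Atp5e, the small epsilon subunit, stood above the others with 57.9 and 71.6 from 2759 and 4019 reads, at 0.31 (0.24 to 0.38). It was at 0.34 (0.27 to 0.41) from unique reads and 0.37 (0.25 to 0.49) from junction reads. Atp5e (chr2:174461072-174464105) and Ndufb8 were the members at least 1.2-fold higher in all 3 kinds of read for which each interval also stayed above 0.2.

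Subunit c, which forms the rotating ring, comes from a trio of genes that encode the same mature protein with different import signals. Atp5g3 had 65.9 and 74.6, at 0.18 (0.12 to 0.24), with 99.2% of its reads unique. Atp5g1 had 12.8 and 14.1, at 0.13 (0.04 to 0.23), with 45.9% unique. Atp5g2 had 70.5 and 73.6, at 0.06 (-0.01 to 0.13), with 4.97% unique. The unique reads of Atp5g2, 195 and 160, went the other way, at -0.48 (-0.80 to -0.18), so the direction of this gene depends on reads that also fit elsewhere. Atp5o, the OSCP subunit of the stator, was at 0.21 (0.15 to 0.28) with 55.2 and 63.9. Its symbol covers chr16:91684398-91931687, which overlaps 7 other features, and 43.9% of its reads were unique.

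Both extremes of complex V rested on reads that were not uniquely placed. Atp5k, the e subunit of the membrane part (chr5:108433244-108434448), had an RPKM of 118 and 89.1 from 1966 and 1753 exon reads, at -0.40 (-0.50 to -0.31). It was the lowest of all measured subunit genes. Its uniquely placed exon reads rose in number, from 796 to 976, and gave 0.09 (-0.04 to 0.23), and its junction reads, 486 and 642, gave 0.20 (0.03 to 0.37). The reads that fit elsewhere as well fell from 1170 to 777. Atp5l, the g subunit, had 83.3 and 104, at 0.31 (0.20 to 0.42), with 6.47% of its reads unique, and these, 87 and 97, gave -0.04 (-0.48 to 0.39). With unique reads neither gene was past 1.2-fold.

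**Figure D4:**
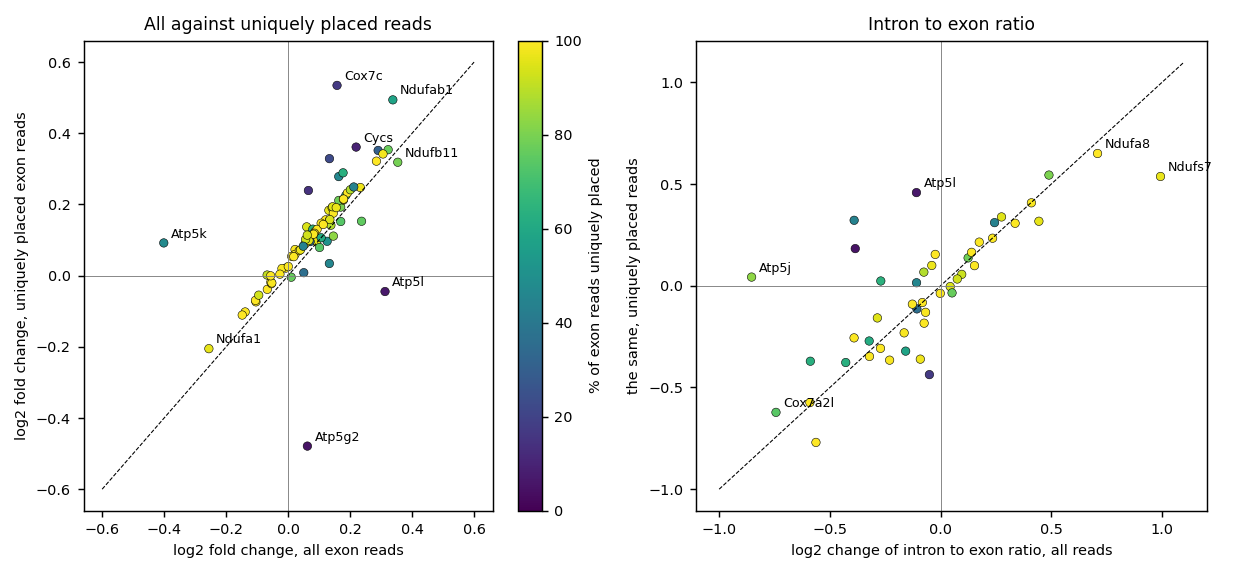
Left, log2 fold change from all exon reads (x axis) against that from uniquely placed exon reads (y axis) for the 81 measured subunit genes, coloured by the percentage of exon reads that were unique. Right, the log2 change of the intron to exon ratio from all and from unique reads for the 47 genes with enough intron reads. Points near the dashed line of equality are mostly yellow, and Atp5k, Atp5l and Atp5g2 lie far from it in the left panel, as does Atp5j in the right panel.

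Intron reads, which come mostly from RNA not yet spliced, were compared with exon reads of the same gene, so that a factor of a whole library cancels. Enough reads were present in 47 subunit genes. The log2 change of the intron to exon ratio had a median of -0.08 and was above 0 in 17 of 47, beside 0.02 and 52.9% over 6803 annotated genes. From unique reads the median of the 47 was 0.02, against 0.01 over all genes, so the lower ratio was not seen in unique reads. The middle 95% of all genes ran from -0.66 to 0.72. Outside it were Ndufs7 at 0.99 (201 and 503 intron reads), Atp5j at -0.85 (172 and 124) and Cox7a2l at -0.74 (179 and 135). With unique reads Ndufs7 was at 0.54, Atp5j at 0.04 and Cox7a2l at -0.62. Atp5j, coupling factor 6 of the stator, overlaps Gabpa.

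Assembly factors, which help build the complexes without being part of them, had a lower median than the subunits. Of 50 assembly factors listed, 43 were measured, and 18 of these lay above 0, with a median of -0.04 and quartiles at -0.11 and 0.10. At least 1.2-fold higher were 2 of 43 (4.65%, against 11.6% of all features) and at least 1.2-fold lower 6 (14.0%, against 10.1%). Ndufaf7, a methyltransferase needed for complex I assembly, had an RPKM of 13.0 and 9.61, at -0.43 (-0.58 to -0.29). Ndufaf4 had 7.45 and 5.75, at -0.37 (-0.52 to -0.23), and Ndufaf1, which acts in the same assembly line, went the other way with 3.14 and 4.23, at 0.42 (0.10 to 0.76). Cox17, a copper chaperone of complex IV, was the lowest, with 4.68 and 2.93 at -0.66, but with unique reads, 24.0% of the total, it was at -0.05. Assembly factors were less abundant than subunits, with a median untreated RPKM of 6.47. The difference between the groups was not tested.

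Among 11 listed regulators of respiratory genes, 10 were measured, 6 were above 0 and the median was 0.08. Nrf1, nuclear respiratory factor 1, had 2.86 and 3.62, at 0.33 (0.21 to 0.47), and Sp1 had 8.02 and 10.4, at 0.37 (0.29 to 0.47). Tfam, which drives transcription in mitochondria, was at -0.20 (-0.32 to -0.09), and Gabpa, the ETS factor that binds many subunit promoters, at 0.11 (-0.03 to 0.25). The coactivator gene Ppargc1a was close to undetected, with 1 and 2 reads. Of 3 proteins associated with the ATP synthase, Usmg5 was at 0.32, Atpif1, its inhibitor, at 0.15 and 2010107E04Rik at -0.03 (-0.12 to 0.07). The 13 subunits encoded in mitochondria had a median of 0.33, from mt-Nd2 at -0.25 to mt-Co3 at 0.69. Their spread was wider than that of the nuclear subunits. Some had few uniquely placed exon reads, such as mt-Co3 with 2.76% and mt-Co2 with 0.26%. With unique reads the median of the 13 was 0.37, with 10 above 0. In these reads mt-Co3 stayed at 0.69, while mt-Co2 went from 0.30 to -0.23 (-0.96 to 0.47).

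Because most subunit genes leaned the same way, their promoters were read for the sites of both factors known for respiratory genes. The windows ran from 250 bases before to 50 bases after the annotated start, came from RefSeq (GRCm38.p6), and were found for 71 of the 87 genes. In 58 of the 71, the first 25 bases after a start were found in a GENCODE transcript on the same strand. The starts of the other genes were not matched in this way, so their motif positions are less certain. The motif of nuclear respiratory factor 1 was searched as GCGCA, any base, GCGC, and the motif of ETS factors such as GABPA as CCGGAAG, each on both strands. The first was held by 17 of 71 genes (23.9%), against 13.8% of 6854 genes of kept features and 5.19% of all 27025 genes in the table. The second was held by 16 of 71 (22.5%), against 24.5% and 9.93%. Measured genes with the first motif had a median log2 fold change of 0.06 (17 genes) and those without it 0.13 (50 genes). With and without the second motif the medians were 0.17 (16) and 0.10 (51). A match is a description of the letters, not a site in use.

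The 4 genes that held both motifs, Sdhd, Cox6a1, Atp5h and Atp5k, are shown with Ndufb4 to show where the matches lie. Ndufb4 held the first motif 3 times, as did Sdha, which is not shown. Each run is the 200 bases before the annotated start, 5′ to 3′ on the strand of the gene, which is the minus strand for all 5, with motif matches in capitals. They lie at chr9:50603850-50604049 (Sdhd), chr5:115348959-115349158 (Cox6a1), chr11:115419920-115420119 (Atp5h), chr5:108434400-108434599 (Atp5k) and chr16:37654369-37654568 (Ndufb4) in GRCm38.
Sdhd: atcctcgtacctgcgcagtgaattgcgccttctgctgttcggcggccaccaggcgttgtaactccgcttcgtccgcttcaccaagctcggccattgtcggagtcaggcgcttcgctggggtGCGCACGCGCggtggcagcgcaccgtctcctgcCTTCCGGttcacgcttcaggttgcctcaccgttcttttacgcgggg
Cox6a1: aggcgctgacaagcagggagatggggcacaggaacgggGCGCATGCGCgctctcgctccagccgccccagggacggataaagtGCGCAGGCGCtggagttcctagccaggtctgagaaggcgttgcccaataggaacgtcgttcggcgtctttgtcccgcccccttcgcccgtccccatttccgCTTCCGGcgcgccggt
Atp5h: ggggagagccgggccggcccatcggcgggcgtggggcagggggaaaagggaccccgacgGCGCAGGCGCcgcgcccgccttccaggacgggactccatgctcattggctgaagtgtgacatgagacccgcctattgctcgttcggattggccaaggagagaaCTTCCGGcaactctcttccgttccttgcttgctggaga
Atp5k: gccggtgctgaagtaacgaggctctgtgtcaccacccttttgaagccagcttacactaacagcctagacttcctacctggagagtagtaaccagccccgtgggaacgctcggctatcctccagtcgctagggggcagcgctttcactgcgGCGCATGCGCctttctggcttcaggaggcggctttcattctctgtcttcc
Ndufb4: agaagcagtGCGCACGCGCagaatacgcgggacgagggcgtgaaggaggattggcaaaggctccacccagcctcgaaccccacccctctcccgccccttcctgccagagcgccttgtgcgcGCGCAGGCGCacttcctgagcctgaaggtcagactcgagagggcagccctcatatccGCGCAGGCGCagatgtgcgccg

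The ETS match of Atp5k lies after the start and is not in the run shown. From all exon reads the 4 genes with both motifs were at -0.40 (Atp5k), 0.01 (Sdhd), 0.05 (Atp5h) and 0.18 (Cox6a1). From unique reads they were all above 0, at 0.09, 0.05, 0.08 and 0.21 in the same order. Ndufb4 was at 0.07 from all exon reads, of which 14.2% were unique. Its unique reads gave 0.24 (-0.13 to 0.62).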

How the data were processed

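RNA of untreated and cycloleucine-treated X63/0 cells, 1 library each, was sequenced on an Ion Proton after ribosomal RNA depletion, per the labels' protocols. The deposited table held counts of total and uniquely placed reads for whole genes and for their exonic, intronic and junction parts, per the file headers. RPKM values were deposited as well, exon reads per kilobase scaled to gene reads, which were rebuilt from the counts as a check. Reads were placed on mm10, per the submitters' processing notes. No source used here names the aligner, the annotation release or whether strand was used, so reads of overlapping or antisense genes may not be separated.

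The log2 fold change was the log2 of cycloleucine RPKM plus 0.1 over untreated RPKM plus 0.1, which understates changes of low genes. Annotated features were kept with 50 or more exon reads in total and an RPKM of 1 or more for untreated or treated cells. With 1 library per group no test was made, and size rules of 1.2-fold and 1.5-fold were used. Intervals were computed exactly (Clopper-Pearson, 95%) for the share of reads from treated cells and scaled by library totals. They cover counting error only, and since no molecular identifiers were counted, copies of 1 molecule may be included. Unique and junction reads were scaled by the total of uniquely placed gene reads, and junction counts had 0.5 added. Intron to exon ratios needed totals of 100 intron and 200 exon reads, after which 0.5 was added to every count.

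The values of 1 measured gene are not reported singly here, although it is in the counts and medians. Named genes were the other core subunits, the 3 highest and 3 lowest of each complex, and the highest of each in untreated RPKM. Also named were paralogs at a shared position, members with an unusual intron to exon ratio, and members below the filter. Other members named here were chosen after their values were seen, as were the assembly factors and regulators named singly. Members and lists were chosen with earlier results of these data known. The table gave starts counted from 0, and 60 of 87 starts equalled GENCODE M21 after 1 was added. Calculations used Python 3.11.15, numpy 2.4.6, pandas 2.3.3 and scipy 1.17.1, and were tested on simulated data. Of per-sample columns from other libraries there were 0.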

Additional observations from a re-analysis of the deposited data

How the results depend on the processing

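No paired analysis was possible because there was only 1 library for either treatment. The alternatives were unique reads, a pseudocount of 1, no filter, an RPKM of at least 5 and trimmed-mean scaling, and 3 more were chosen after seeing the data: junction reads, only members with at least 90% unique reads, and no members of overlapping genes. Under each of these, the medians of all members and of each complex stayed inside the counting interval of a typical member of the set. That interval, from the medians of the interval bounds, is wide. It covers the counting error of a single gene and not the error of a median. Staying inside it therefore says little about how stable the medians are. The median of all members ran from 0.061 to 0.12. With mostly unique members the median of complex I fell from 0.083 to 0.029 and that of complex III from 0.071 to 0.036, without overlapping genes that of complex II went from 0.052 to 0.012, and with junction reads that of complex IV went from 0.16 to 0.067 and that of complex V from 0.094 to 0.13. The count of members at least 1.2-fold higher, 7, was 11 with unique reads and 12 of 73 with junction reads. It was 2 of 50 with mostly unique members and 4 of 52 without overlapping genes. Shares of all features are given above for unique reads, junction reads and mostly unique members. No such share was computed without overlapping genes. The count at least 1.2-fold lower, 1, was 2 with no filter, 2 with junction reads and 0 with mostly unique members. At 1.5-fold, 1 gene was higher (Cox8c, with 1 read) and 1 lower (Ndufa4l2) with no filter, and 1 was higher with junction reads. No share of all features was computed with no filter, nor for 1.5-fold with junction reads. Fewer or more genes enter under these filters, and the cause of the other shifts was not tested. With unique reads Atp5k was at 0.092 and Atp5l at -0.045, and 6 others of 53 named genes left their counting intervals. The intron to exon change took the other sign with unique reads in 9 of 32 named genes. In 5 it moved by more than its counting error, namely Atp5g2 (0.18), Atp5j (0.043), Atp5l (0.46), Atp5o (0.32) and Ndufs1 (0.024), and in Atp5b, Atp5g1, Cox6c and Uqcrh by less. Read number limits Cox7a1, Cox4i2, Atp5s and Ndufa4l2.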

Other observations

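Across the whole table, 228 of the 9081 kept features had uniquely placed exon reads that all crossed a junction, as in Cox4i1, Ndufa13 and Cox6a2. Atp5s, which was below the filter, had 29 and 39 exon reads but 130 and 234 intron reads. Cox7b2, with 0 exon reads, had 26 and 32 intron reads.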
